A study of Mus musculus with 8 samples.

Results

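The interleukin-6 (IL-6) axis and its acute phase output were followed through 10 genes of the 48587 in the deposited count table. They were Il6 and Lif (ligands), Il6ra, Il6st and Osmr (receptors), Stat3 (transcription factor), Socs3 (inhibitor), and Lcn2, Saa3 and Serpina3n (acute phase genes). They were picked by symbol, and several had been noticed for their strong rise with vitamin D in these libraries. Their VitD against vehicle values are therefore a description and carry no p-value.

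RNA came from the whole aortic tree of mice, as poly-A enriched, stranded libraries. Each of 4 groups held 2 libraries. The first was from mice labelled with a Tet2 knockout specific to vascular smooth muscle cells and given VitD (Tet2KO-labelled VitD), the second from littermate controls given VitD (WT VitD), and the others from the same genotypes given vehicle. TET2 starts the removal of DNA methylation by oxidising methylcytosine, and excess vitamin D is used in mice to calcify the medial layer of arteries. The study's question is what loss of Tet2 in smooth muscle does to osteogenic change and calcification of the aorta. Dose, length of treatment, age and the number of mice are not in the labels, nor are the Cre driver and the deleted stretch of Tet2. It is not stated that replicate libraries are different animals, so each p-value speaks of the spread among libraries, and this spread may be technical.

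In this pathway a ligand of the IL-6 family binds its own receptor chain and brings together gp130, the shared signalling chain encoded by Il6st. JAK kinases on gp130 then phosphorylate STAT3, which enters the nucleus and switches on genes such as Socs3, whose product blocks gp130 and JAK and so closes the loop. In liver the same route, with C/EBP and NF-kappaB factors, drives the acute phase response, and smooth muscle cells, fibroblasts and macrophages of the vessel wall can also make IL-6 and some acute phase proteins.

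The stretches of 250 bases before the annotated start of Il6, Socs3 and Saa3 are shown because they carry letters that match these factors' motifs and because the 3 genes were among those with the largest VitD differences. The window of Lcn2, which also holds a match, is not printed because GENCODE annotates much of it as exon. Capitals mark each match. The sequences are RefSeq's on GRCm38.p6, the assembly also named mm10, printed along the gene's own strand. They lie at chr5:30012864-30013113 (plus strand, Il6), chr11:117969367-117969616 (minus strand, Socs3) and chr7:46715677-46715926 (minus strand, Saa3).
Il6: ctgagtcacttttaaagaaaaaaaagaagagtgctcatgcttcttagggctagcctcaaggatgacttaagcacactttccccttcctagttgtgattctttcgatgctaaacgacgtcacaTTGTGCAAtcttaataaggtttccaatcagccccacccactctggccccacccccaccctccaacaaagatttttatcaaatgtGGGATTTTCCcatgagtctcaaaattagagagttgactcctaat
Socs3: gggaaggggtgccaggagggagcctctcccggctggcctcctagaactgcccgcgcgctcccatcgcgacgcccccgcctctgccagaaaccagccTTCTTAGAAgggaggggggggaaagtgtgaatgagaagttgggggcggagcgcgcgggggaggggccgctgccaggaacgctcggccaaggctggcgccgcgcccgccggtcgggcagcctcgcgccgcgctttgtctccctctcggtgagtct
Saa3: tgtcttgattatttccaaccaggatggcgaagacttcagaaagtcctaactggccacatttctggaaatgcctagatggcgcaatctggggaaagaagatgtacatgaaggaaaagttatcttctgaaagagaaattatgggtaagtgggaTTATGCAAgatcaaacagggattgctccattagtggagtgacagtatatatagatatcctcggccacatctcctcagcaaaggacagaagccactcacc

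In the Il6 sequence the first capitals are a match to the C/EBP motif TTGCNNAA, read here on the other strand, which begins 128 bases before the start, and the second a match to the NF-kappaB consensus, which begins 44 bases before it. The Socs3 sequence holds the STAT motif TTCNNNGAA, beginning 154 bases before the start, and the Saa3 sequence a C/EBP match, also on the other strand, beginning 99 bases before it. All 10 genes were found in the RefSeq promoter table. Among the others, Lcn2 held a C/EBP match 216 bases before the start and Lif an NF-kappaB match 178 bases before it, while Il6ra, Il6st, Osmr, Stat3 and Serpina3n held none of the 3 motifs in this window. Both strands were searched. Of 32851 promoter windows of the same length, 7.02% held the STAT motif, 9.56% the C/EBP motif and 7.25% the NF-kappaB consensus. In GENCODE some transcripts of Lif, Osmr, Socs3, Lcn2 and Saa3 begin upstream of the RefSeq start. The windows of Socs3, Lcn2 and Saa3 thus overlap annotated exons there, as do the last bases of the Lif window. The windows of Osmr, Socs3 and Lcn2 lie wholly within the annotated gene.

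Several features of the libraries bear on all values. Library totals ranged over 15679274 to 22332149 counts. Tet2 stood at 26.6 and 37.5 CPM (counts scaled to the library total, with TMM normalisation) in the Tet2KO-labelled VitD libraries and 18.3 and 20.02 CPM in the WT VitD libraries, and at 42.0 and 35.1 CPM in the Tet2KO-labelled vehicle libraries against 35.8 and 32.2 CPM in the WT vehicle libraries. Tet2 was thus not lower in the libraries labelled as knockouts, in a tissue where other cells keep the gene. The library names carry numbers in a lower and a higher range, which the labels do not call batches. All vehicle libraries and Tet2KO-labelled VitD library 2 are in the lower range, and the other 3 VitD libraries are in the higher one. Ribosomal protein genes took 1.92% to 2.35% of the counts in the lower range and 4.37% to 4.93% in the higher one. In WT, VitD and number range cannot be told apart from these libraries alone, so values within the lower range are given beside the results. The smooth muscle markers summed to 15154 to 28018 CPM in VitD libraries and 27637 to 29970 CPM in vehicle libraries, and all 8 were present in every library. In bulk tissue, fewer cells of a type and less RNA per cell cannot be told apart.

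All 10 genes passed the filter on low counts, Il6 only through its VitD libraries. For 8 of the 10, every VitD library stood above every vehicle library of both genotypes, and 12.6% of the 16194 tested genes did so. Lif and Il6ra were the exceptions. The largest differences were in Il6, Lcn2, Saa3 and Serpina3n, then Socs3, while the receptor genes and Stat3 differed by smaller factors.

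**Figure D1:**
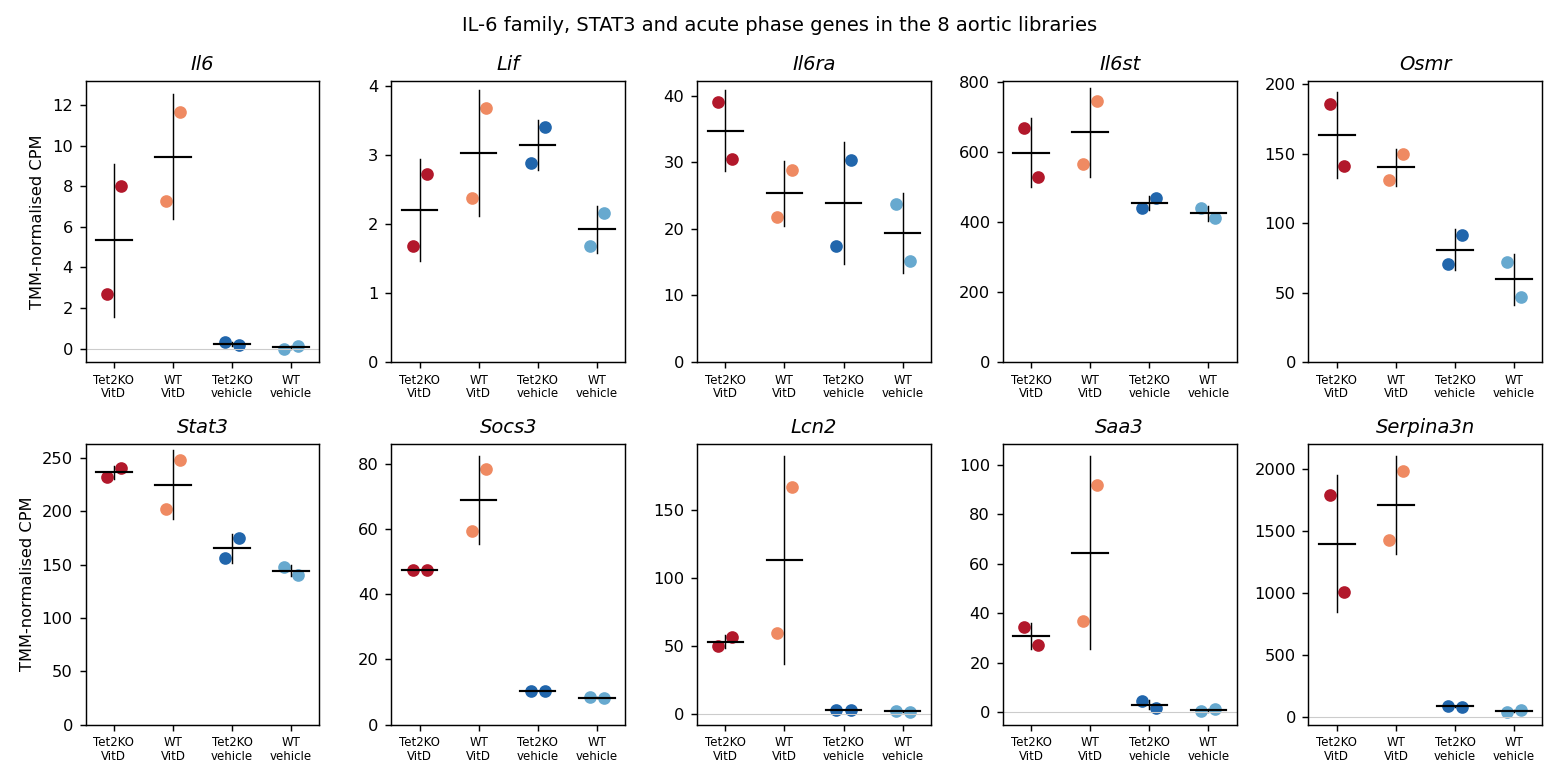
TMM-normalised CPM of the 10 genes in each of the 8 libraries (points), with group means (horizontal lines) and SD (vertical lines, n = 2 per group); each panel has its own linear axis. Il6, Socs3, Lcn2, Saa3 and Serpina3n are near the bottom of their panels in all vehicle libraries, while Lif and Il6ra overlap between VitD and vehicle.

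Il6 (chromosome 5, 30013114 to 30019981, mm10), the ligand that gives the pathway its name, was nearly absent from the aorta without VitD. It had 43 and 182 reads in the Tet2KO-labelled VitD libraries and 110 and 206 in the WT VitD libraries, against 5 and 3 in the Tet2KO-labelled vehicle libraries and 0 and 2 in the WT vehicle libraries. As CPM these were 2.67 and 7.998 in Tet2KO-labelled VitD and 7.27 and 11.6 in WT VitD libraries, against 0.307 and 0.167 in Tet2KO-labelled vehicle and 0 and 0.114 in WT vehicle libraries. The 4 VitD libraries all lay above the 4 vehicle libraries, and the spread within the Tet2KO-labelled VitD pair was 2.998-fold. The fitted log2 difference between VitD and vehicle was 4.48 (SE 0.755) in Tet2KO-labelled aortas and 7.16 (SE 0.910) in WT aortas. Leaving out 1 library moved the fitted value over 3.47 to 5.06 in Tet2KO-labelled aortas (lowest without VitD library 2, highest without VitD library 1) and over 6.29 to 10.4 in WT aortas (lowest without vehicle library 1, highest without vehicle library 2). The WT value rests on 316 reads against 2. Taken as a ratio of those reads per library size, it was 162, with an exact 95% interval of 44.5 to 1345 that covers counting error only.

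Lif (chromosome 11, 4257557 to 4272514), a related ligand that signals through its own receptor and gp130, did not follow Il6. It had 1.68 and 2.72 CPM in Tet2KO-labelled VitD libraries and 2.38 and 3.68 CPM in WT VitD libraries. The vehicle values were 2.88 and 3.40 CPM in Tet2KO-labelled and 1.68 and 2.16 CPM in WT libraries. All values lay between 1.68 and 3.68 CPM, and the VitD and vehicle libraries overlapped. The log2 difference was -0.50 (SE 0.421) in Tet2KO-labelled and 0.66 (SE 0.428) in WT aortas. In the VitD libraries there were 1.59 to 3.17 Il6 reads per Lif read, against 0 to 0.106 in the vehicle libraries.

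Il6ra (chromosome 3, 89864059 to 89913196) encodes the chain that binds IL-6 itself. It had 39.0 and 30.4 CPM in Tet2KO-labelled VitD libraries and 21.8 and 28.8 CPM in WT VitD libraries, against 17.4 and 30.3 CPM in Tet2KO-labelled vehicle libraries and 23.7 and 15.1 CPM in WT vehicle libraries. The groups overlapped, and the Tet2KO-labelled vehicle pair differed within itself nearly as much as any groups did. The log2 difference was 0.54 (SE 0.317) in Tet2KO-labelled and 0.39 (SE 0.319) in WT aortas.

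Il6st (chromosome 13, 112464070 to 112510086), the gp130 gene, had the highest level per kilobase of the receptor genes in every group. Levels were 668 and 528 CPM in Tet2KO-labelled VitD libraries and 567 and 747 CPM in WT VitD libraries, against 440 and 470 CPM in Tet2KO-labelled vehicle libraries and 439 and 410 CPM in WT vehicle libraries. VitD and vehicle did not overlap, but the lowest VitD library was only modestly above the highest vehicle library. Log2 differences were 0.40 (SE 0.225) in Tet2KO-labelled and 0.63 (SE 0.226) in WT aortas.

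Osmr (chromosome 15, 6813577 to 6874969), which pairs with gp130 to form the receptor for oncostatin M, showed the widest gap among the receptors. It had 186 and 142 CPM in Tet2KO-labelled VitD libraries and 131 and 150 CPM in WT VitD libraries. In vehicle it had 70.6 and 91.4 CPM in Tet2KO-labelled and 72.3 and 46.6 CPM in WT libraries. Every VitD library was above every vehicle library, with log2 differences of 1.01 (SE 0.255) in Tet2KO-labelled and 1.24 (SE 0.257) in WT aortas. Osmr reads per Il6st read were 0.200 to 0.278 in VitD libraries and 0.114 to 0.195 in vehicle libraries.

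Per kilobase of exon, the order of levels among the receptor genes was Il6st, then Osmr, then Il6ra in every group. On that scale Il6st had 53.9 ± 8.90 CPM per kilobase in Tet2KO-labelled VitD libraries, 59.2 ± 11.4 in WT VitD libraries, 41.0 ± 1.89 in Tet2KO-labelled vehicle libraries and 38.3 ± 1.85 in WT vehicle libraries (SD, n = 2). Osmr had 13.5 CPM per kilobase in Tet2KO-labelled VitD and 11.6 in WT VitD libraries, against 6.68 in Tet2KO-labelled vehicle and 4.91 in WT vehicle libraries. Il6ra had 4.02 in Tet2KO-labelled VitD and 2.93 in WT VitD libraries, against 2.76 in Tet2KO-labelled vehicle and 2.24 in WT vehicle libraries. Neighbours in this order did not overlap within a group. The ligands came below, except for Il6 in WT VitD libraries. Il6 had 2.20 ± 1.55 CPM per kilobase in Tet2KO-labelled VitD libraries and 3.90 ± 1.27 in WT VitD libraries (SD, n = 2). In WT VitD its mean was above that of Il6ra, and the values of these genes overlapped. Without VitD Il6 had 0.0976 CPM per kilobase in Tet2KO-labelled and 0.0234 in WT vehicle libraries. In vehicle, Lif (0.722 CPM per kilobase in Tet2KO-labelled and 0.441 in WT) was thus above Il6, and in VitD (0.506 in Tet2KO-labelled and 0.696 in WT) below it.

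Stat3 (chromosome 11, 100885098 to 100939540), the factor that gp130 activates, is itself a STAT3 target. It had 232 and 241 CPM in Tet2KO-labelled VitD libraries and 202 and 248 CPM in WT VitD libraries, against 156 and 175 CPM in Tet2KO-labelled vehicle libraries and 148 and 140 CPM in WT vehicle libraries. The groups did not overlap, and the log2 differences of 0.52 (SE 0.185) in Tet2KO-labelled and 0.64 (SE 0.185) in WT aortas were of like size. These are levels of its RNA. Phosphorylation, which sets STAT3 activity, was not measured.

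Socs3 (chromosome 11, 117966079 to 117970047), the feedback inhibitor with the STAT match printed above, had close values in both libraries of 3 of the 4 groups. It had 47.5 CPM in both Tet2KO-labelled VitD libraries and 59.5 and 78.5 CPM in the WT VitD libraries. The vehicle libraries had 10.3 and 10.4 CPM in Tet2KO-labelled and 8.32 and 8.08 CPM in WT aortas. Each group stood clear of the others. The log2 difference was 2.20 (SE 0.192) in Tet2KO-labelled and 3.07 (SE 0.199) in WT aortas. These are 4.59-fold in Tet2KO-labelled and 8.41-fold in WT aortas. Socs3 reads per Stat3 read were 0.205 and 0.197 in Tet2KO-labelled VitD libraries and 0.295 and 0.317 in WT VitD libraries, against 0.0661 and 0.0594 in Tet2KO-labelled vehicle libraries and 0.0562 and 0.0575 in WT vehicle libraries.

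Serpina3n (chromosome 12, 104406729 to 104414329), a secreted serine protease inhibitor of the antichymotrypsin family, was the most abundant of the 10 per kilobase under VitD. It had 1791 and 1014 CPM in Tet2KO-labelled VitD libraries and 1432 and 1988 CPM in WT VitD libraries, against 92.9 and 84.1 CPM in Tet2KO-labelled vehicle libraries and 47.1 and 56.5 CPM in WT vehicle libraries. The lowest VitD library was far above the highest vehicle library, and log2 differences were 3.99 (SE 0.342) in Tet2KO-labelled and 5.04 (SE 0.360) in WT aortas. As folds they were 15.8 in Tet2KO-labelled and 33.0 in WT aortas. Its level per kilobase placed it 38th of 15709 genes with a length in Tet2KO-labelled VitD libraries and 36th in WT VitD libraries, against 927th in Tet2KO-labelled vehicle libraries and 1714th in WT vehicle libraries. It took 0.178% and 0.103% of the counts in Tet2KO-labelled VitD libraries and 0.135% and 0.193% in WT VitD libraries, and at most 0.00951% in a vehicle library. Serpina3n lies in a cluster of near-identical genes, between which reads may have been split.

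Lcn2 (chromosome 2, 32384633 to 32388252) encodes lipocalin-2, which binds bacterial siderophores and is made by neutrophils, macrophages and many stimulated tissue cells. It had 49.5 and 56.5 CPM in Tet2KO-labelled VitD libraries and 59.0 and 167 CPM in WT VitD libraries, against 3.004 and 2.84 CPM in Tet2KO-labelled vehicle libraries and 1.92 and 1.48 CPM in WT vehicle libraries. VitD and vehicle did not overlap, and WT VitD library 2 stood well above the other VitD libraries. The log2 difference was 4.18 (SE 0.466) in Tet2KO-labelled and 6.05 (SE 0.511) in WT aortas, which is 18.1-fold in Tet2KO-labelled and 66.3-fold in WT. Without WT VitD library 2 the WT value was 34.6-fold.

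Saa3 (chromosome 7, 46711998 to 46715700) is the serum amyloid A gene that mouse macrophages and fat make outside the liver. It had 34.5 and 27.1 CPM in Tet2KO-labelled VitD libraries and 36.8 and 92.0 CPM in WT VitD libraries. In vehicle it had 4.54 and 1.73 CPM in Tet2KO-labelled and 0.373 and 1.25 CPM in WT libraries. No VitD library overlapped a vehicle library, and WT VitD library 2 was again the highest. Log2 differences were 3.30 (SE 0.580) in Tet2KO-labelled and 6.28 (SE 0.690) in WT aortas, the equal of 9.87-fold in Tet2KO-labelled and 77.5-fold in WT. With 1 library left out the fold ranged over 6.77 to 17.7 in Tet2KO-labelled aortas (lowest without vehicle library 2, highest without vehicle library 1) and 44.4 to 170 in WT aortas (lowest without VitD library 2, highest without vehicle library 2). The WT fold divides by 6 and 22 reads, and as a member of the Saa family the gene's counts are subject to splitting of reads.

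**Figure D2:**
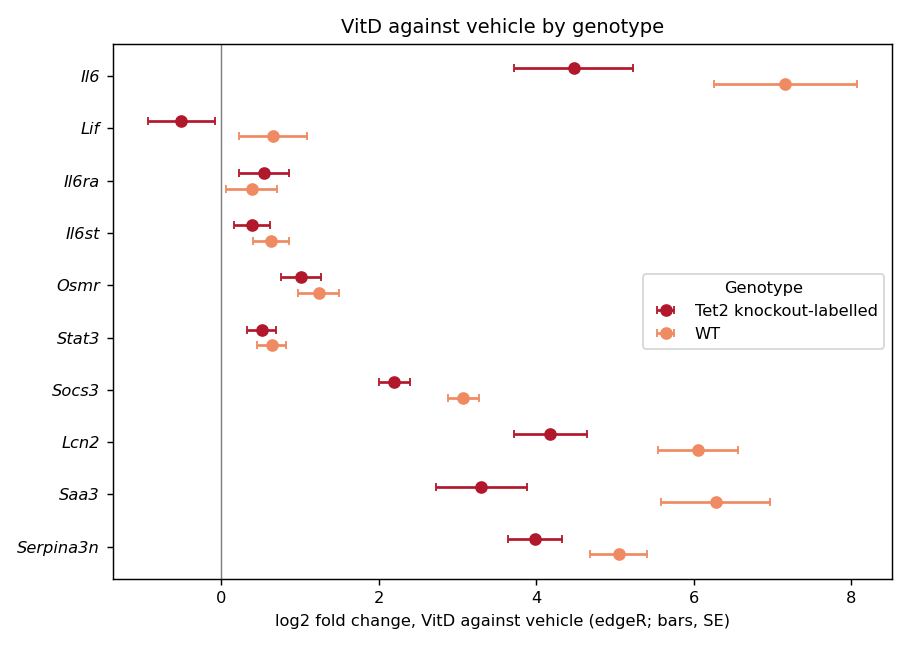
Log2 fold change of VitD against vehicle for the 10 genes, from the edgeR fit to all 8 libraries, in Tet2KO-labelled (dark red) and WT (orange) aortas; bars are 1 SE. The largest values belong to Il6 (4.48 in Tet2KO-labelled and 7.16 in WT), Saa3, Lcn2 and Serpina3n, and the receptor genes and Stat3 lie at 1.24 or below.

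The VitD libraries were not equal to each other. WT VitD library 2 exceeded WT VitD library 1 in all 10 genes, by 1.14-fold (Osmr) to 2.82-fold (Lcn2), while 48.8% of all tested genes were higher in library 2. It was the highest of the 8 libraries for 8 of the 10 genes, against 18.0% of all tested genes, and Tet2KO-labelled VitD library 1 was the highest for Il6ra and Osmr. Between the Tet2KO-labelled VitD libraries, 4 of the 10 were higher in library 2, against 50.9% of all tested genes. Within the lower number range, Tet2KO-labelled VitD library 2 could be set against the Tet2KO-labelled vehicle libraries alone. There it was 33.8-fold the vehicle mean for Il6, 19.3-fold for Lcn2, 11.5-fold for Serpina3n, 8.64-fold for Saa3 and 4.59-fold for Socs3. It was 1.75-fold for Osmr, 1.46-fold for Stat3, 1.28-fold for Il6ra, 1.16-fold for Il6st and 0.867-fold for Lif. These are values of a single library, with no test. After adjustment for the number range, the WT log2 differences were 8.74 for Il6, 6.24 for Lcn2, 5.92 for Saa3, 4.22 for Serpina3n and 3.07 for Socs3. They were 1.36 for Lif, 0.85 for Osmr, 0.69 for Stat3, 0.29 for Il6st and 0.028 for Il6ra. The adjustment rests on the difference between the Tet2KO-labelled VitD libraries.

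**Figure D3:**
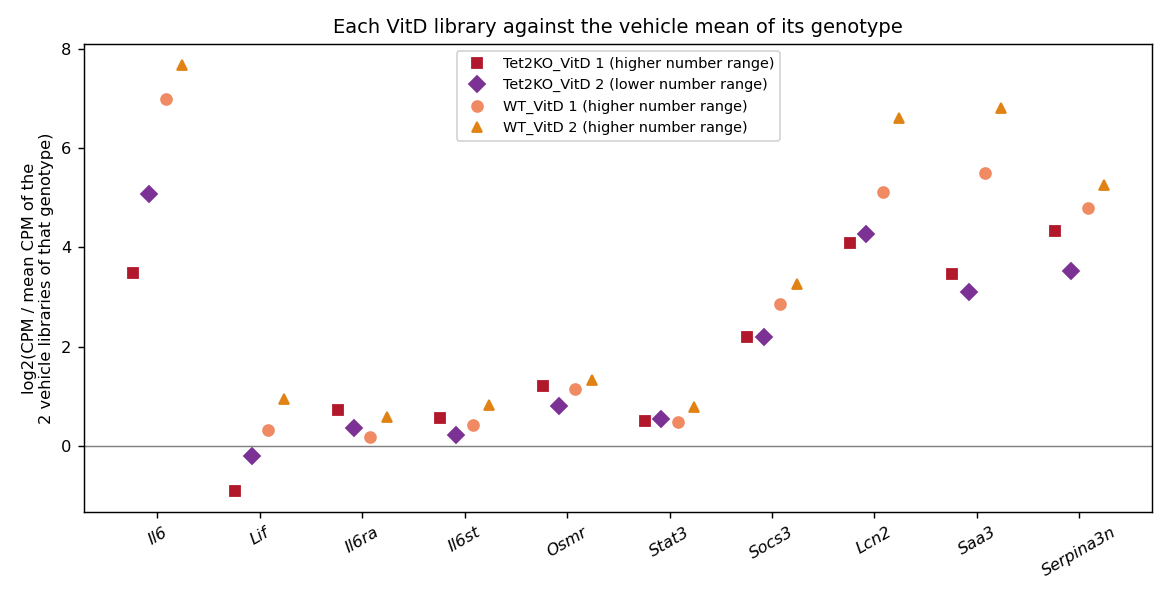
Log2 ratio of each VitD library to the mean CPM of the 2 vehicle libraries of its genotype, for the 10 genes; the diamond is Tet2KO-labelled VitD library 2, the only VitD library in the lower number range. WT VitD library 2 (triangles) is the highest for every gene but Il6ra, where Tet2KO-labelled VitD library 1 is at 1.64-fold and WT VitD library 2 at 1.49-fold, and all Lif values lie within -0.91 and 0.94.

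Among markers of other cells, the macrophage and neutrophil sums were higher in every VitD library than in every vehicle library. The other lists did not share this split. The 11 macrophage markers summed to 2654 and 1525 CPM in Tet2KO-labelled VitD libraries and 2679 and 3143 CPM in WT VitD libraries, against 779 and 936 CPM in Tet2KO-labelled vehicle libraries and 605 and 635 CPM in WT vehicle libraries, with none at 0. All 11 passed the test as higher in WT and 1 of 11 in Tet2KO-labelled aortas. Of all tested genes, 10.6% were called higher and 9.47% lower in WT, and 0.179% higher and 0.0185% lower in Tet2KO-labelled aortas. The 12 neutrophil markers were low, at 32.6 and 19.6 CPM in Tet2KO-labelled VitD libraries and 45.8 and 83.4 CPM in WT VitD libraries, against 17.3 and 9.98 CPM in Tet2KO-labelled vehicle libraries and 11.3 and 4.89 CPM in WT vehicle libraries. Of the 8 tested, 5 were higher in WT and 0 in Tet2KO-labelled aortas, and the defining marker Ly6g had 0 to 3 reads in every library. Among the 8, Cxcr2 had 3 to 6 reads and Mmp8 0 to 8 reads in the vehicle libraries, so these could hardly be called lower. WT VitD library 2 was the highest in both sums, as it was for Lcn2 and Saa3. The 7 skeletal muscle markers were high in both WT VitD libraries, at 102 and 440 CPM, against 13.6 to 32.9 CPM in the other groups, and 7 of 7 passed the test as higher in WT. Endothelial markers summed to 4375 and 1304 CPM in Tet2KO-labelled VitD libraries and 2738 and 2340 CPM in WT VitD libraries, against 1738 and 1860 CPM in Tet2KO-labelled vehicle libraries and 1479 and 1369 CPM in WT vehicle libraries, with 1 of 7 higher in WT. Fibroblast markers summed to 8153 and 8621 CPM in Tet2KO-labelled VitD and 9174 and 11099 CPM in WT VitD libraries. In vehicle they summed to 9475 and 9347 CPM in Tet2KO-labelled and 8165 and 7677 CPM in WT libraries. With VitD, 1 of 8 was called higher and 1 lower in WT, and 0 in Tet2KO-labelled aortas. Tet2KO-labelled VitD library 1 held 262 CPM of adipocyte markers, against 750 to 1230 CPM elsewhere, and WT vehicle library 1 held 109 CPM of T cell markers, against at most 35.1 CPM elsewhere. The 10 hepatocyte markers summed to 398 and 210 CPM in Tet2KO-labelled VitD and 163 and 239 CPM in WT VitD libraries, against 258 and 276 CPM in Tet2KO-labelled vehicle and 291 and 308 CPM in WT vehicle libraries. Most of that sum was Cyp2e1, and the other 9 gave 110 and 3.30 CPM in Tet2KO-labelled VitD and 11.04 and 6.45 CPM in WT VitD libraries, against 19.5 and 8.42 CPM in Tet2KO-labelled vehicle and 7.89 and 101 CPM in WT vehicle libraries. Of the 10 hepatocyte markers, 9 passed the filter, Cyp2e1 among them. The medians over these 9 tested genes were a log2 of 1.76 in Tet2KO-labelled and -2.77 in WT aortas, with 1 of 9 lower in WT. The part of these other cells in the VitD differences was not tested.

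By genotype, the values of the 10 genes leaned upward without VitD and mostly downward with it, but no difference passed the test. Under vehicle all 10 had a log2 difference above 0 for Tet2KO-labelled against WT, as did 49.1% of all tested genes. The largest were Saa3 at 1.91 (SE 0.704), Il6 at 1.87 (SE 1.24), Lcn2 at 0.78 (SE 0.514) and Serpina3n at 0.77 (SE 0.307). Adjusted p by edgeR's quasi-likelihood test was 1 for each of the 10. The percentage of all tested genes called in this contrast was 0%. At an unadjusted p under 0.05 there were 481 genes, among them Saa3 and Serpina3n, and DESeq2 called 18 genes and 0 of the 10. Saa3 was called when no filter on low counts was applied (adjusted p 3.08e-05, with a range of 3.08e-05 to 1 over the settings tried).

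Under VitD, 3 of the 10 had a log2 difference above 0 for Tet2KO-labelled against WT, against 52.6% of all tested genes. Lcn2 was at -1.09 (SE 0.39, adjusted p 0.467), Saa3 at -1.07 (SE 0.507, adjusted p 0.479), Il6 at -0.82 (SE 0.564, adjusted p 0.570), Socs3 at -0.54 (SE 0.181, adjusted p 0.457) and Serpina3n at -0.29 (SE 0.303, adjusted p 0.716). The receptors and Stat3 lay between -0.14 for Il6st and 0.45 for Il6ra. Both WT VitD libraries are in the higher number range, and the Tet2KO-labelled VitD pair is split between the ranges. This contrast is therefore partly mixed with the range. With the range as a covariate Il6 was at -1.83 and Serpina3n at 0.066. On that fit Lif was at -0.86 (-0.45 without the covariate) and Osmr at 0.40 (0.22 without it). By edgeR's quasi-likelihood test 0% of all genes were called, with 1719 at an unadjusted p under 0.05, 2 of them among the 10, and DESeq2 called 96 genes and 0 of the 10. Without WT VitD library 2 the log2 differences of Lcn2 and Saa3 shrank to -0.16 and -0.26. With no filter on low counts both passed, at adjusted p 0.000375 for Lcn2 and 0.00212 for Saa3, with ranges over the settings up to 0.977 and 0.980.

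The interaction, the VitD difference in Tet2KO-labelled minus that in WT aortas, was below 0 for 9 of the 10 genes, against 51.6% of all tested genes above 0. It was -2.97 for Saa3 (SE 0.867), -2.68 for Il6 (SE 1.36), -1.87 for Lcn2 (SE 0.644), -1.06 for Serpina3n (SE 0.431) and -0.87 for Socs3 (SE 0.265). The edgeR adjusted p was 0.803 for Il6 and 0.794 for each of the other 4. No gene was called (0%), 1006 had an unadjusted p under 0.05, of which 4 were among the 10, and DESeq2 called 18 genes and 0 of the 10. Without a filter on low counts Saa3 (adjusted p 3.41e-09) and Lcn2 (adjusted p 0.000205) passed, each with a range over the settings up to 1. These contrasts share their WT libraries with the one in which the genes were noticed, so a low WT vehicle value or a high WT VitD value enters both. The groups of the interaction also differ in number range.

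To place the 10 genes in their pathway, 103 other genes of 8 lists were counted, 93 of which passed the filter. With VitD 29 of the 93 rose and 5 fell in WT aortas, or 36.6%, where 20.1% of all tested genes were called (10.6% higher and 9.47% lower). In Tet2KO-labelled aortas 1 of the 93 (1.08%) was called, and it was higher, against 0.198% of all genes (0.179% higher and 0.0185% lower). The median log2 difference of all genes was -0.01 in Tet2KO-labelled and -0.03 in WT aortas. Over both genotypes 33 of the 93 had all VitD libraries above all vehicle libraries, and 8 had them all below, where all tested genes gave 12.6% and 11.6%. Of the 93, 11 reached the filter only through their VitD libraries, so that they could hardly be called lower or lie below vehicle. Il11, Osm, Saa1, Saa2, Saa4, Serpina3f and Serpina3i of these 11 are among the 33. The split of 33 and 8 was not recounted without the 11, so it leans upward in part through the filter. Without these 11 the count of WT calls was 30 of 82, where 20.4% of the genes that reached the filter in both treatments were called. Without the genes that also mark a cell type it was 33 of 88. The WT count depends on single libraries and on the number range: it was 7 and 10 without WT vehicle library 1 and 2, 22 and 9 without WT VitD library 1 and 2, and 2 (Bcl3 and Serpina3m) with the range as a covariate, when 58 genes in all were called. Of the 20 WT genes called and chosen by the naming rule, 5 kept their call whichever library was left out, among them Myc, Il4ra, Bcl3 and Serpina3m. Each of the others lost it without at least 1 WT library.

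Among the other IL-6 family ligands, 3 of 7 were called higher in WT and 0 in Tet2KO-labelled aortas, with list medians of 0.35 in Tet2KO-labelled and 0.41 in WT. Il11, a ligand made by stromal cells, had 3.23 and 1.76 CPM in Tet2KO-labelled VitD libraries and 1.65 and 7.58 CPM in WT VitD libraries, against 0.184 and 0.558 CPM in Tet2KO-labelled vehicle libraries and 0.497 and 0.569 CPM in WT vehicle libraries. All 4 VitD libraries were above all vehicle libraries, and the log2 difference was 2.7 in Tet2KO-labelled (edgeR adjusted p 0.247) and 3.10 in WT aortas (SE 0.801, adjusted p 0.0306). Without WT VitD library 2 the WT value was 1.62 (adjusted p 0.261), and the call was also lost without either WT vehicle library. Osm, the oncostatin M gene, had 8 and 36 reads in WT VitD libraries against 2 and 4 in WT vehicle libraries, a log2 difference of 2.82 (SE 0.804, edgeR adjusted p 0.0406). It was 1.54 without WT VitD library 2 (adjusted p 0.326). The Osm call was also lost without any 1 of the 4 vehicle libraries, with the replicate number as a block (adjusted p 0.0502) and when only the WT groups were fitted (adjusted p 0.0521). Il11 and Osm are among the 11 genes that passed the filter only through VitD.

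The other receptors and the JAK and STAT genes gave no call in either genotype, 0 of 5 and 0 of 10, with medians between -0.02 and 0.04. The smallest p in WT belonged to Il27ra (0.83, edgeR adjusted p 0.0639) and Lifr (0.38, adjusted p 0.281), and to Tyk2 (-0.54, adjusted p 0.0801) and Stat6 (-0.30, adjusted p 0.193). In Tet2KO-labelled aortas they were Lifr (0.60, adjusted p 0.342) and Il31ra (0.90, adjusted p 0.413), and Stat5b (-0.38, adjusted p 0.423) and Stat4 (1.14, adjusted p 0.466). Of 13 negative regulators, 2 rose and 2 fell in WT. Those that rose were the phosphatase genes Ptpn6 (1.87, SE 0.284, adjusted p 0.00785) and Ptpn2 (0.77, SE 0.176, adjusted p 0.0225). Those that fell were Pias1 (-0.76, SE 0.172, adjusted p 0.0218) and Pias3 (-0.70, SE 0.193, adjusted p 0.0373), whose products bind activated STATs. In Tet2KO-labelled aortas 0 of 13 were called, with Ptpn2 at 0.64 (adjusted p 0.204) and Ptpn6 at 0.49 (adjusted p 0.457). The list medians were 0.09 in Tet2KO-labelled and -0.15 in WT aortas.

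Of 25 further genes known as STAT3 targets, 11 rose and 1 fell in WT, with a median of 0.89. Il1rn, the IL-1 receptor antagonist, rose by 4.31 (SE 0.765, edgeR adjusted p 0.0122), the growth gene Myc by 2.41 (SE 0.295, adjusted p 0.00370), the receptor gene Il4ra by 2.36 (SE 0.290, adjusted p 0.00370) and Bcl3, a regulator of NF-kappaB, by 2.26 (SE 0.252, adjusted p 0.00281). Without WT VitD library 2 Il1rn was at 2.86 (adjusted p 0.0878). The gene that fell was Vegfa (-1.03, SE 0.260, adjusted p 0.0290), which is named here after its value was seen. In Tet2KO-labelled aortas 0 of 25 were called and the median was 0.29, with Myc at 1.83 (adjusted p 0.0524) and Junb at 1.2 (adjusted p 0.0814). Myc had 36.2 and 20.8 CPM in Tet2KO-labelled VitD libraries and 26.2 and 25.3 CPM in WT VitD libraries, against 7.17 and 8.87 CPM in Tet2KO-labelled vehicle libraries and 4.66 and 5.01 CPM in WT vehicle libraries, so the groups did not overlap.

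**Figure D4:**
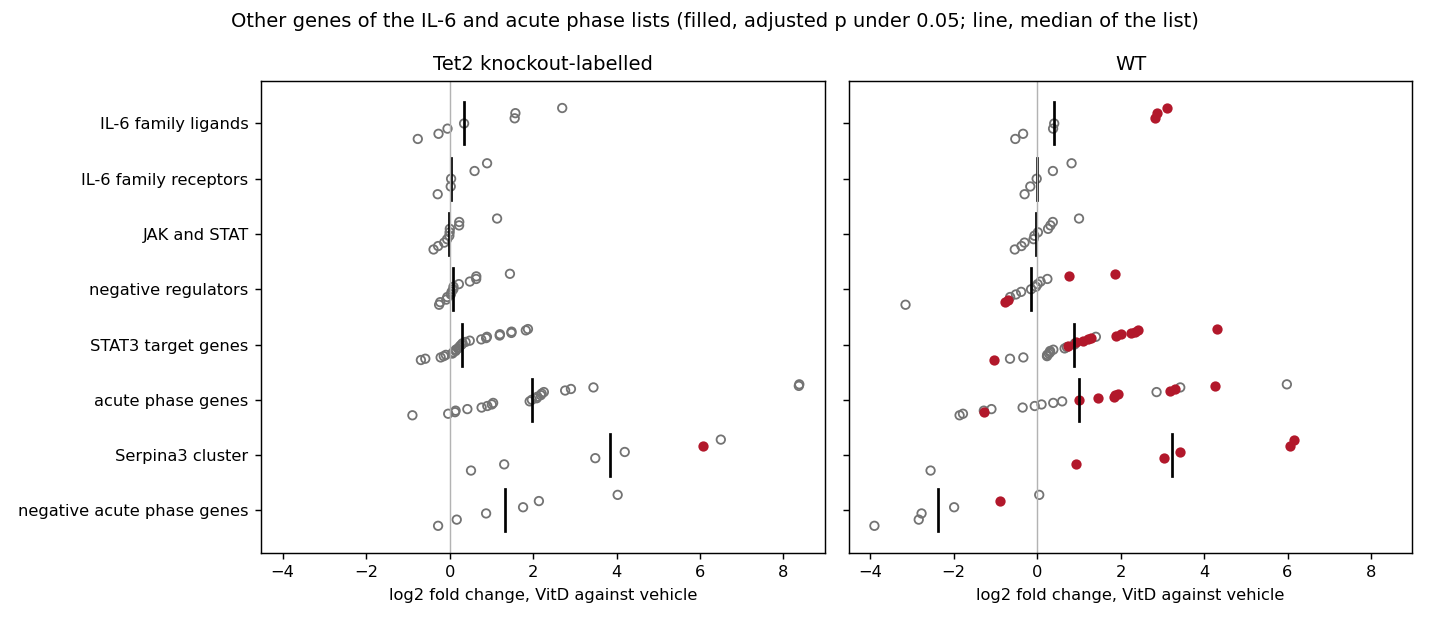
Log2 fold change of VitD against vehicle for the 93 other tested genes of the 8 lists (points), in Tet2KO-labelled (left) and WT (right) aortas; filled points had an adjusted p under 0.05 by edgeR and vertical lines are list medians. Filled points number 1 in Tet2KO-labelled and 34 in WT aortas, with most of the WT ones among the STAT3 targets, acute phase genes and Serpina3 cluster.

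Of 21 tested acute phase genes, 8 rose and 1 fell in WT, with medians of 1.97 in Tet2KO-labelled and 1.01 in WT aortas. Both medians include Saa1, Saa2, Saa4, Fgg and Hamp, which passed the filter only through their VitD libraries. Some of the acute phase genes differed widely within a group. Fga, chosen after its values were seen, had 5.52 and 0.571 CPM in Tet2KO-labelled VitD and 0.264 and 1.24 CPM in WT VitD libraries. In vehicle it had 0.920 and 0.335 CPM in Tet2KO-labelled and 0.186 and 3.53 CPM in WT libraries. The libraries highest in Fga were also the highest in Alb, a hepatocyte gene. The part of liver RNA in these medians was not tested. Ptx3, a pentraxin made in tissues, rose by 4.26 in WT (SE 0.764, edgeR adjusted p 0.0126), the haemoglobin scavenger gene Hp by 3.30 (SE 0.603, adjusted p 0.0128), Lrg1 by 3.19 (SE 0.452, adjusted p 0.00646) and the lipopolysaccharide-binding protein gene Lbp by 1.94 (SE 0.245, adjusted p 0.00422). Without WT VitD library 2 Ptx3 was at 3.07 (adjusted p 0.0923) and Hp at 2.63 (adjusted p 0.0994). Hp had 504 and 1447 CPM in Tet2KO-labelled VitD libraries and 1019 and 2227 CPM in WT VitD libraries, against 280 and 174 CPM in Tet2KO-labelled vehicle libraries and 113 and 216 CPM in WT vehicle libraries. Its VitD libraries lay above its vehicle libraries in both genotypes. The gene that fell in WT was Itih3 (-1.28, SE 0.244, adjusted p 0.0140), chosen after its value was seen. In Tet2KO-labelled aortas 0 of 21 were called, with Lrg1 at 1.97 (adjusted p 0.125) and Agt, the angiotensinogen gene, at 2.21 (adjusted p 0.130).

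Saa1 and Saa2, the serum amyloid genes of the liver, had few reads and differed between libraries of a group. Saa1 had 4.34 and 0.483 CPM in Tet2KO-labelled VitD libraries and 0.198 and 0.679 CPM in WT VitD libraries, with 0 reads in all vehicle libraries. The reads of each VitD group's 2 libraries were pooled and set against a floor of 3 reads over the vehicle group. Pooled Saa1 was 23.8-fold that floor in Tet2KO-labelled and 5.13-fold in WT aortas. Pooled Saa2 was 24.1-fold the floor in Tet2KO-labelled aortas, with a ratio of 12.3 in WT aortas (24 reads against 2, exact 95% interval 3.06 to 108). These values are not lower bounds for single libraries. Saa1 had 70 and 11 reads in Tet2KO-labelled VitD libraries and 3 and 12 in WT VitD libraries. Saa2 had 65 and 17 reads in Tet2KO-labelled VitD libraries. These genes were chosen after their values were seen. The first Tet2KO-labelled VitD library, which held most of the Saa1 reads, also had the most Alb, a hepatocyte gene, with 68.9 and 0.791 CPM in Tet2KO-labelled VitD libraries and 5.29 and 2.54 CPM in WT VitD libraries, against 12.4 and 3.40 CPM in Tet2KO-labelled vehicle libraries and 2.73 and 50.3 CPM in WT vehicle libraries. The part of liver RNA in Saa1 and Saa2 was not tested. Of 6 tested negative acute phase genes, whose liver output falls in an acute phase response, Rbp4 fell in WT (-0.89, SE 0.257, edgeR adjusted p 0.0425) and 0 were called in Tet2KO-labelled aortas, where Apoa1 had 4.03 (adjusted p 0.334) and Apoa2 1.76 (adjusted p 0.536). Alb, Ttr, Apoa1 and Apoa2 of this list are also hepatocyte markers, and the list medians were 1.32 in Tet2KO-labelled and -2.38 in WT aortas.

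The neighbours of Serpina3n in the Serpina3 cluster gave the highest share of calls, with 5 of 6 tested genes called higher in WT and 1 of 6 in Tet2KO-labelled aortas. Serpina3m had 41.8 and 15.1 CPM in Tet2KO-labelled VitD libraries and 30.5 and 46.6 CPM in WT VitD libraries, against 0.613 and 0.223 CPM in Tet2KO-labelled vehicle libraries and 0.373 and 0.683 CPM in WT vehicle libraries. Every VitD library was far above every vehicle library, and Serpina3m rose by 6.08 in Tet2KO-labelled (SE 0.656, edgeR adjusted p 0.0115) and 6.16 in WT aortas (SE 0.640, adjusted p 0.00273). The Tet2KO-labelled call was lost when only the 2 groups compared were fitted and when any 1 vehicle library was left out, and kept when any 1 VitD library was left out. In WT, Serpina3g (3.43, SE 0.567, edgeR adjusted p 0.0103) and Serpina3c also rose. Serpina3i was at 6.05 (SE 1.10, adjusted p 0.0128) and Serpina3f at 3.04 (SE 0.810, adjusted p 0.0375), but both passed the filter only through their VitD libraries. With 1 WT library left out Serpina3i ranged over 5.02 (without VitD library 2) to 8.44 (without vehicle library 1). Serpina3i rested on 83 reads in WT VitD against 1 in WT vehicle, a ratio of 85.2 with an exact 95% interval of 14.9 to 3405, and Serpina3f on 26 against 3, a ratio of 8.90 (2.73 to 45.9). The list median was 3.84 in Tet2KO-labelled (3.18 with Serpina3f, at 0 reads in that vehicle group, set to its bound) and 3.23 in WT aortas. Reads of Serpina3n, the far more abundant neighbour, could be assigned among these near-identical genes, so their shared rise is uncertain.

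The patterns most like those of Il6, Socs3 and Serpina3n were sought by Pearson's r of log2(CPM + 1) over the 8 libraries, among 13721 genes. For Il6 they were Runx3 (0.989), Aif1 (0.985), Oas3 (0.983), Snai1 (0.981) and Bst2 (0.980). For Socs3 they were AI506816 (0.997), Cfap43 (0.996), Lcn2 (0.996), Ccl2 (0.996) and Ifitm3 (0.995), and for Serpina3n they were Spp1 (0.997), Ifitm3 (0.995), Cxcl13 (0.991), Ch25h (0.991) and Ptgs2 (0.990). Among the 10 genes themselves, Il6 had r of 0.971 with Socs3, 0.973 with Lcn2, 0.948 with Saa3 and 0.935 with Serpina3n, against 0.310 with Lif and 0.439 with Il6ra. All libraries share the split between VitD and vehicle, so any gene that follows it is near the top of such a ranking, and no p is given.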

How the data were processed

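Whole-aorta RNA was sequenced in 8 libraries. The authors deposited a table of raw counts, 1 row per gene symbol, and name Trimmomatic 0.39, STAR 2.7.8a, featureCounts 2.0.2 and mm10, per the submitters' processing notes. Which annotation was counted, with what strand setting, and how reads with several map positions were handled are points not given in the sources used here. Counts of near-identical genes (the Saa and Serpina3 families) are therefore uncertain. Groups and replicate numbers came from the sample titles. Replicates differed by more than sampling noise in every group, so none was counted as a repeat deposit.

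Tests were run in edgeR 4.0.16 (R 4.3.3): TMM normalisation, filterByExpr (16194 of 48587 genes kept, 20586 having no count), 1 mean per group over all 8 libraries (4 residual degrees of freedom), quasi-likelihood tests of 5 contrasts and Benjamini-Hochberg adjustment within a contrast over all tested genes at 0.05. The SE of a log2 difference was worked out from it and its F value, and CPM values are TMM-normalised. Ratios of few reads carry exact (Clopper-Pearson) 95% intervals, and a group with no read a floor of 3 reads. Both cover counting error only.

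The 10 genes, the pathway and marker lists and the tests were chosen with earlier results of these data known. Named genes were all 10 members, from each pathway list in each VitD contrast up to 4 called genes with the largest change or, with none called, the 2 with the smallest p, and the 5 genes most correlated with Il6, Socs3 and Serpina3n (mean of at least 1 CPM in the highest group, predicted genes left out). A gene that this rule names among the ligands is counted but not reported here. Coordinates and exon lengths are from GENCODE M21, in which 46378 symbols (95.5%) matched exactly 1 gene, and promoters are from RefSeq.

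Alternatives were DESeq2 size factors, DESeq2 1.42.0 on every gene with a count, no filter, a block for the replicate number, a covariate for the range of the library numbers, fitting only the groups compared, and leaving out each library. Values per VitD library, non-overlap counts, counts without marker genes or without genes that reach the filter through 1 treatment, and the hepatocyte sum without Cyp2e1 were added after seeing the data. The procedure was tested on simulated data with 16194 genes and the WT comparison of VitD with vehicle: 20 of 100 genes given a log2 change of 1 were found, and 71 of 100 given 2, beside 15 false calls.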

Additional observations from a re-analysis of the deposited data

Results flagged for a closer look

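In 3 genes every VitD library moved one way from vehicle in one genotype and the opposite way in the other, but the test of that difference called none of them. They are 2.91% of the 103 members and pathway genes tested, and 1.71% of all 16194 tested genes (277) did the same. For Lif the interaction was -1.16 (SE 0.600, edgeR adjusted p 0.803), with a range of -1.56 to -0.81 over the settings tried. For Il27ra, the receptor gene for IL-27, it was -1.11 (SE 0.389, adjusted p 0.794). Il27ra had 4.84 and 4.39 CPM in Tet2KO-labelled VitD libraries and 6.55 and 6.84 CPM in WT VitD libraries, against 5.33 and 5.91 CPM in Tet2KO-labelled vehicle libraries and 3.91 and 3.64 CPM in WT vehicle libraries. For Serpina3k, a cluster gene expressed in liver, it was 6.04 (SE 1.52, adjusted p 0.794). Serpina3k had 13.4 and 1.41 CPM in Tet2KO-labelled VitD libraries and 1.32 and 1.07 CPM in WT VitD libraries, against 0.797 and 0.502 CPM in Tet2KO-labelled vehicle libraries and 2.24 and 11.8 CPM in WT vehicle libraries. Its 2 highest libraries were also the 2 highest in Alb, whose part in the Serpina3k value was not tested.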

How the results depend on the processing

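With 2 libraries per group, counts of calls depended on the processing, while the direction of VitD against vehicle was kept for all 10 genes under all alternatives. For VitD in WT, 3251 genes and 34 pathway genes were called, against 58 and 2 with the covariate for the number range. Leaving out 1 library gave 136 to 4991 genes and 7 to 44 pathway genes. For VitD in Tet2KO-labelled aortas, 32 genes and 1 pathway gene were called. These became 461 and 18 with DESeq2, 1225 and 32 without a filter, 20 genes with the covariate, 2 and 0 with only the groups compared, and 0 to 1927 genes and 0 to 23 pathway genes with 1 library left out. For genotype under vehicle, with 0 genes called, DESeq2 called 18 genes and 1 pathway gene and no filter 164 and 8, while leaving out 1 library gave 0 in each case. For genotype under VitD, DESeq2 called 96 and 1, no filter 610 and 10, the covariate 16 genes, and leaving out 1 library 0 to 698 genes and 0 to 2 pathway genes. For the interaction the counts were 18 and 1 with DESeq2, 403 and 15 without a filter, 7 genes with the covariate, and 0 to 36 genes and 0 pathway genes with 1 library left out. The filter alternatives test more genes of low count and also estimate the spread with those genes included. Calls gained without a filter, among them those of Saa3 and Lcn2, thus come from a changed estimate of the spread too. Which of these moved the calls was not tested. Leaving out a library assumes that the lone one varies like the other groups. For the rest the cause was not tested. Small genotype differences changed sign without passing the test, and leaving out 1 library set their ranges. Under vehicle Il6ra ranged over -0.15 to 0.66. Under VitD Il6st ranged over -0.34 to 0.076, Serpina3n over -0.77 to 0.066 and Stat3 over -0.084 to 0.23, and with the covariate Il6st was 0.023 and Serpina3n 0.066. The interaction ranged over -0.21 to 0.61 for Il6ra, -0.57 to 0.059 for Osmr and -0.27 to 0.031 for Stat3. The replicate numbers share only a number: differences between replicates 1 and 2 correlated at -0.19 to 0.17 between groups over 16194 genes, and with the number as a block 2474 genes and 29 pathway genes were called for VitD in WT and 24 and 1 in Tet2KO-labelled aortas. Depth limits genes with few vehicle reads, among them Il6 (0 to 5 reads), Osm, Saa1, Saa2, Saa3 in WT, Serpina3i and Serpina3f, and every value is limited by 2 libraries per group.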
